A study of Mus musculus with 6 samples.

Results

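Mouse B cells activated in culture with interleukin 4 (IL4) and an antibody against CD40 are described here from the solvent controls alone: the 3 libraries titled DMSO A, B and C, out of 6 in the series. They were chosen by their labels, not by any measured value. The other 3 libraries, from cultures given the FOXO1 inhibitor Cpd10, enter no result. Per the labels, the starting cells were splenic naive B cells sorted from 10 male mice aged 3 months, whose strain and genotype the labels do not state. The mice had received sheep red blood cells 9 days before, and cells of 2 experiments were combined ahead of culture. The cells spent 5 days in an embryonic stem cell medium (KO-DMEM) with IL4 at 80 ng/ml and anti-CD40 at 5 µg/ml, and the solvent DMSO was present for the final 48 hours. The labels do not say what the letters A, B and C stand for, so whether the spread between libraries is technical or biological is not known. With 1 group of 3 libraries there is nothing to test against, and the values below are levels with their spread.

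CD40 on B cells binds the ligand displayed by helper T cells and signals through TRAF adaptors to NF-kB. IL4 binds a receptor made of the IL4 receptor alpha chain and the common gamma chain, and signals through JAK kinases to STAT6. In mouse B cells the pair of signals is known to drive division, raise MHC class II and the low-affinity IgE receptor CD23, and direct class switching to IgG1 and IgE. Class switching is preceded by transcription of the unrearranged constant region, so a constant region gene collects reads from these sterile transcripts and from the mRNA of switched cells alike.

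The libraries held 42798114 (A), 36873204 (B) and 40881235 (C) gene counts, and library B stood apart from A and C. Pearson's r of log2 CPM (counts per 1000000 gene counts of the library) across the 8904 genes averaging at least 10 CPM was 0.9796 for A with C, 0.9492 for A with B and 0.9335 for B with C; genes are not independent replicates. The share of counts from ribosomal protein genes was 7.25% in A, 11.7% in B and 6.74% in C, and that from immunoglobulin genes was 3.45%, 2.74% and 6.80%. Values are therefore given per library in the order A, B, C. What sets library B apart was not tested.

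The 3 markers of this activation were present in every library. Fcer2a, which encodes CD23 (chromosome 8, 3681737 to 3694175, minus strand, GRCm38), had 1435, 937 and 1291 CPM. Ighg1, the IgG1 constant region (chromosome 12, 113325240 to 113330523), had 6362, 4620 and 10384 CPM. Cd86, the costimulatory ligand of CD28 (chromosome 16, 36603869 to 36666081), had 68.5, 50.4 and 80.2 CPM. All 3 were lowest in library B. On the scale of relative transcript abundance (TPM, counts per kilobase of exon, scaled to the same total in each library), which allows genes to be compared, Ighg1 ranked 7 of all genes, Fcer2a 120 and Cd86 3033.

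Among 16 genes listed as induced by IL4 in B cells, 14 reached 1 CPM in all 3 libraries, and a pair of chemokine genes differed widely in level. Ccl22, a ligand of the receptor CCR4 (chromosome 8, 94745590 to 94751699), had 1495, 1047 and 744 CPM. Ccl17, which encodes another CCR4 ligand and lies on the same chromosome (chromosome 8, 94810453 to 94812036), had 0.280, 0.0542 and 0.636 CPM. Ccl22 was thus among the 100 genes with the highest mean TPM (rank 97), and Ccl17 lay below 1 CPM in each library. The other member under 1 CPM was Il4i1, a secreted amino acid oxidase, at 0.0467, 0.244 and 0.465 CPM; 85.9% of its exon length is overlapped by a gene on the opposite strand, so its count is uncertain. Start-site windows of Fcer2a, Ccl22 and Ccl17 are shown because they include both abundant members of the list and a near-absent one. Of the 3 Fcer2a windows, only 1 held a match to the letters marked below, and it was picked for that match. Each window runs from 250 bases before to 50 after a RefSeq start site (GRCm38.p6), 5′ to 3′ on the gene's strand. Capitals mark a match to TTCNNNNGAA, a spaced palindrome known to bind STAT factors, which reads the same on both strands. Palindromes with another spacing were not searched for and are not marked.
Fcer2a, chr8:3690812-3691111, minus strand, 1 of 3 windows of the gene: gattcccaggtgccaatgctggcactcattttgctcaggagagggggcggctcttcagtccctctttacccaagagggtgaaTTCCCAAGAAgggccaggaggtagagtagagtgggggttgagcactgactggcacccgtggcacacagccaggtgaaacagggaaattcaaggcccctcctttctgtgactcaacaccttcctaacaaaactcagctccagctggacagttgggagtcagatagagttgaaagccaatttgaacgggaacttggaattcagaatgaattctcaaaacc
Ccl22, chr8:94745434-94745733, plus strand: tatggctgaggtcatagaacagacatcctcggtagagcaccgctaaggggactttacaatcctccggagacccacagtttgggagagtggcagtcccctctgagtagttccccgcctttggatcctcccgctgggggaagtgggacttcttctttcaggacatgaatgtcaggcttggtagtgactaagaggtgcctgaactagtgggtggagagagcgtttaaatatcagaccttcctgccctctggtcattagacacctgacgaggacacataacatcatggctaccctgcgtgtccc
Ccl17, chr8:94810203-94810502, plus strand: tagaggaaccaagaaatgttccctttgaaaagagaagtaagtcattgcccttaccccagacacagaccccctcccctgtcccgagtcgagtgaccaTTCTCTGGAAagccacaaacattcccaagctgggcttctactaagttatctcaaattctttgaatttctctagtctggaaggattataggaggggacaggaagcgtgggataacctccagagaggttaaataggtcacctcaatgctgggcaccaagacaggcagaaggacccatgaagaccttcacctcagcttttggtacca
The match began 168 bases before the start in this Fcer2a window and 154 bases before the start of Ccl17, and the Ccl22 window held none. These letters occurred in 2284 of 32851 windows (6.95%), in those of 3 of the 12 IL4-induced genes that had a window (Fcer2a, Ccl17 and Bcl2l1) and of 0 of 14 members of the IL4 receptor and STAT6 pathway. Over all genes the share with a matching window was 8.01%, and over genes at 1 CPM or more in all 3 libraries 6.34% (554 of 8732). A match in such a window is a description of letters and says nothing of binding.

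In all, 11515 genes reached 1 CPM in each of the 3 libraries, of which 10539 were protein-coding and 157 were long intergenic noncoding RNAs. At least 100 CPM in every library was seen for 1939 genes, and at least 1000 CPM for 73. The 845 genes with the highest mean CPM held 50% of the counts. In library B that number was 749, in A 907 and in C 850, so counts were concentrated in fewer genes in B. At the other end, 31981 of 54838 gene identifiers had 0 counts in all 3 libraries, among them 7299 of 21998 protein-coding genes. For scale, the median level of the 11515 genes was 22.4 TPM, and the 90th percentile was 133 TPM.

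The most abundant transcripts came from antigen receptor genes, antigen presentation and the translation machinery. Igkc, the kappa light chain constant region, led the TPM scale in each library at 35388, 27327 and 62513 TPM. By mean TPM, Ighm, the constant region of IgM, followed at 12476, 8919 and 25723 TPM, and the MHC class II invariant chain Cd74 at 14615, 13113 and 14638 TPM. In A and B, Cd74 lay above Ighm. The immunoglobulin genes were highest in library C, whereas Cd74 differed by at most 1.20 times between libraries. Eef1a1, the translation elongation factor that delivers aminoacyl-tRNA, was next at 10735, 18772 and 9846 TPM, and by mean CPM it was the highest gene, with 8858, 16156 and 9117 CPM, though in library C Ighm, Igkc, Ighg1 and Cd74 lay above it. Ighe, the IgE constant region, ranked 5 by mean TPM and Ighg1 ranked 7, with the ribosomal stalk genes Rplp1 and Rplp0 at ranks 6 and 8.

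Among the 25 genes with the highest mean TPM were 9 ribosomal protein genes (Rplp1, Rplp0, Rps15, Rpl4, Rps4x, Rps3a1, Rpl36, Rpl8 and Rpl32), and ribosomal protein genes made up 45 of the first 100. The elongation factor Eef2 had 5811 ± 1432 TPM (mean ± SD, n = 3 libraries here and below), the actin-sequestering thymosin gene Tmsb4x 5272 ± 598 TPM, the MHC class I light chain B2m 4943 ± 112 TPM, Actb 4823 ± 576 TPM and prothymosin Ptma 3416 ± 393 TPM. B2m and Tmsb4x were steady over the libraries, and the ribosomal genes other than Rps3a1 were highest in B. The remaining places were taken by the short joining segments Igkj1, Igkj5, Igkj2 and Ighj4, whose exons span 38 to 54 bases, and by 1 predicted gene. Values per kilobase of such short segments rest on few bases, and 12 of the 25 genes were also among the 25 highest by CPM.

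Transcripts of IgM, IgG1 and IgE made up nearly the whole of the heavy chain constant signal. Ighm held 40.5%, 37.7% and 48.7% of the heavy chain constant counts (42.3 ± 5.74%). Ighg1 held 33.1%, 30.0% and 28.1% (30.4 ± 2.51%), and Ighe 25.2%, 31.9% and 21.9% (26.3 ± 5.08%). Ighm had the largest share in each library, and the order of Ighg1 and Ighe was reversed in B. Per kilobase of exon Ighe was above Ighg1 in each library, by 1.24, 1.74 and 1.28 times, so the order turned in A and C, since the annotated Ighg1 exons are longer. Gene counts cannot separate sterile from switched transcripts, or membrane from secreted forms.

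Other isotypes were present at low levels. Ighd, the constant region of IgD and a marker of resting B cells, held 1.03% of the heavy chain constant counts in A (95% Clopper-Pearson interval 1.01 to 1.05%), 0.126% in B (0.117 to 0.135%) and 0.890% in C (0.876 to 0.906%). These intervals cover counting error only. Library B was the low one, with a ratio of Ighm to Ighd counts of 300 beside 39.3 in A and 54.7 in C. Ighg2b held 0.127%, 0.0733% and 0.181%, Ighg3 0.0788%, 0.0826% and 0.127%, and Ighg2c 0.0350%, 0.0134% and 0.0519%. Counts of Ighg1 were 137, 177 and 78.1 times the sum of the other IgG genes. Igha, the IgA constant region, held 0.0192%, 0.131% and 0.0142%, and here B was the high library.

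**Figure D1:**
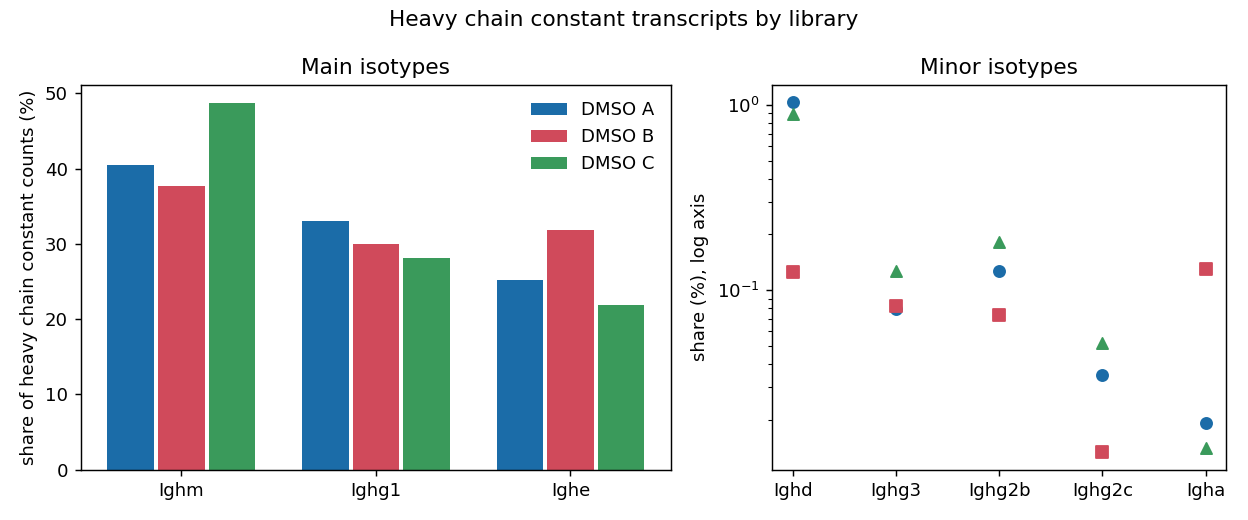
Share of each heavy chain constant gene among all heavy chain constant counts (%), one bar or symbol per DMSO library; the right panel has a log axis. Ighm was the largest share in every library (37.7% to 48.7%), and Ighd and Igha show library B apart from A and C.

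The summed level of the heavy chain constant genes was 19237, 15399 and 36971 CPM in A, B and C, so library C was highest and B lowest. Jchain, which joins IgM and IgA into polymers and is transcribed in antibody-secreting cells, showed the same order at 761, 401 and 2068 CPM. Lambda chains took 7.85%, 9.50% and 7.49% of light chain constant counts, and Iglc1 was the most abundant lambda gene. In RNA from bulk cultures, a larger number of antibody-secreting cells and more RNA per such cell cannot be told apart.

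The heavy chain variable segments separated library B from the other libraries, and the kappa segments did not. Of 113 annotated heavy V segments, 101 had a count in all 3 libraries and 87 reached 1 CPM in all 3. For 100 annotated kappa V segments these numbers were 97 and 92. Across the 113 heavy segments, Pearson's r of the share of heavy V counts was 0.990 for A with C, 0.512 for A with B and 0.515 for B with C. Across kappa segments r was 0.990, 0.982 and 0.982 for the same pairs. Segments of one family can share reads with near-identical copies. The part of heavy V usage that differed was 5.98% between A and C, 38.4% between A and B and 37.8% between B and C.

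By family, the large Ighv1 group held 60.5% of heavy V counts in A, 34.5% in B and 60.6% in C. Ighv5 held 9.65%, 19.2% and 9.75%, and Ighv2 held 4.88%, 14.9% and 5.07%. The following segments were picked after their values were seen. Ighv1-26 was the leading segment in A (7.13%) and C (6.85%) and held 2.29% in B, where Ighv5-6 led with 6.36% beside 1.47% in A and 1.41% in C. Ighv2-9 held 0.349%, 5.43% and 0.355%. No segment passed 7.13% of heavy V counts in any library. Among kappa segments, Igkv1-117 led in A, Igkv1-135 in B and Igkv1-110 in C. Igkv1-117 held 4.53%, 4.83% and 4.90%, Igkv1-135 4.34%, 5.03% and 4.82%, and Igkv1-110 4.14%, 4.47% and 4.95%.

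**Figure D2:**
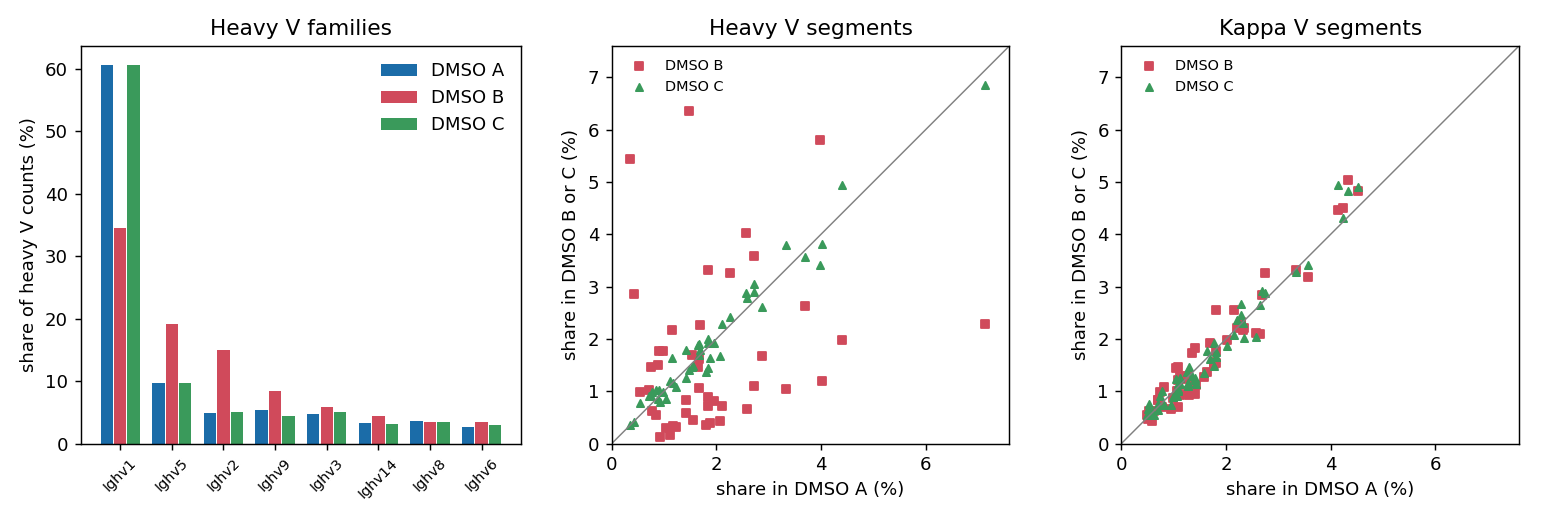
Left, share of heavy V counts (%) in the 8 largest Ighv families by library. Middle and right, share (%) of heavy or kappa V segments in DMSO A (x axis) against DMSO B or C (y axis), with the line of equality. Only segments that reached 50 CPM in at least 1 library are drawn. Heavy segments of B scatter off the line while those of C follow it. Over all 113 annotated heavy segments, drawn or not, r with A was 0.512 for B and 0.990 for C.

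All 36 measured genes of the class switch machinery reached 1 CPM in every library. Among those described were the DNA break sensor Parp1 (260 ± 27.1 TPM), the histone variant H2afx (194 ± 44.5 TPM), the elongation factor Supt5 (134 ± 16.8 TPM) and the mismatch repair gene Msh6 (114 ± 19.8 TPM). The RNA exosome subunits Exosc3 and Exosc10 had 96.4 ± 3.41 and 92.0 ± 11.1 TPM. The Ku subunits of end joining, Xrcc6 and Xrcc5, had 39.9 ± 8.68 and 37.7 ± 3.63 TPM, above the median of expressed genes. In contrast, none of 6 genes of V(D)J recombination was expressed. Rag1, Rag2, Dntt, Vpreb1 and Igll1 had 0 counts in all 3 libraries, which allows up to 0.0249 CPM over the pooled libraries (3 counts), and Vpreb2 had 0.108 CPM in B alone.

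All 15 genes of the IL4 receptor and STAT6 pathway reached 1 CPM in every library, with a median of 97.6 TPM. Il4ra, the ligand-binding chain, had 1413, 1762 and 1510 CPM, and its 747 ± 91.7 TPM was the highest level of 52 cytokine receptor genes. Il2rg, the common gamma chain, had 139, 106 and 139 CPM (154 ± 23.8 TPM), with 30.5% of its exon length shared with a gene on the same strand. Il13ra1, the partner of Il4ra in the type II receptor, was just above the 1 CPM limit, at 1.94, 1.82 and 1.76 CPM. Among signal carriers, Jak1 had 117 ± 12.9 TPM, Jak3 99.1 ± 34.6 TPM, Jak2 53.8 ± 10.3 TPM and Stat6 141 ± 19.5 TPM, and Jak3 was highest in B (135, 257 and 163 CPM). The feedback genes Cish and Socs1 had 97.6 ± 18.7 and 81.7 ± 15.0 TPM, Socs2 189 ± 28.3 TPM and Socs3 70.0 ± 24.2 TPM. Stat6 was the highest of the 7 STAT genes. The range of its next neighbour Stat5a (122 ± 32.9 TPM) overlapped that of Stat6, and Stat5b (108 ± 11.4 TPM) lay below Stat6 in every library.

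Of 52 cytokine receptor genes, 34 reached 1 CPM in all libraries, 13 stayed under 1 CPM in all and 5 were mixed. After Il4ra came Il21r, the receptor of the T cell cytokine IL21, at 611, 560 and 477 CPM (477 ± 84.9 TPM), and Il5ra, whose chain binds IL5, at 534, 744 and 434 CPM (460 ± 138 TPM). The levels of Il21r and Il5ra overlapped over the libraries. Crlf2, the TSLP receptor chain, had 139 ± 11.3 TPM. Il9r, the IL9 receptor, had 269, 79.5 and 319 CPM and was low in B only, and Il2ra, the high-affinity IL2 chain, had 108, 89.1 and 53.8 CPM. Interferon receptors were present at 67.8 ± 4.33 TPM (Ifngr2), 45.4 ± 5.98 TPM (Ifngr1) and 41.8 ± 3.82 TPM (Ifnar1). Receptors with 0 counts throughout included Il13ra2, Il12rb2, Il31ra, Il20ra, Il1rl1, Il22ra1 and Il22ra2.

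Among 22 TNF receptor family genes, the receptors of B cell survival ligands led. Tnfrsf13c, the BAFF receptor, had 162, 179 and 170 CPM (238 ± 14.2 TPM) and was steady over the libraries. Tnfrsf13b, which encodes TACI, had 174 ± 36.2 TPM, Tnfrsf8 (CD30) 148 ± 41.4 TPM and the death receptor Fas 128 ± 25.8 TPM, and these 3 overlapped. Cd40 itself had 110, 57.0 and 105 CPM (76.5 ± 25.4 TPM), lowest in B. Tnfrsf17, the plasma cell receptor BCMA, had 0.841, 0 and 2.79 CPM, and the memory marker Cd27 0.958, 0.786 and 1.74 CPM. Tnfrsf1a, the widely expressed TNF receptor, had at most 0.108 CPM, whereas Tnfrsf1b had 36.3, 31.1 and 36.7 CPM.

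Receptors that place B cells in lymphoid tissue were led by Gpr183, the oxysterol receptor EBI2, at 291, 242 and 235 CPM (255 ± 44.1 TPM). P2ry10, a lysophospholipid receptor, had 210 ± 17.4 TPM. Ccr7, which draws cells to the T zone, had 184 ± 68.5 TPM, Cxcr4 180 ± 34.7 TPM, and Cxcr5, the follicle homing receptor, 144 ± 6.94 TPM, so these 3 were not separated beyond the spread of Ccr7. Ccr4, the receptor of the abundant Ccl22, had 89.5, 77.6 and 82.2 CPM. Ccr6 had 8.55, 0.786 and 14.2 CPM and S1pr1, the egress receptor, 11.9, 6.45 and 21.5 CPM, with B lowest for each. Ccr9, Ccr3, Cxcr1, Ccr8, Cxcr6 and S1pr5 had 0 counts in all 3 libraries.

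Toll-like receptor genes differed widely in level, and 12 of 17 members of the list reached 1 CPM in all libraries. Tlr7, the endosomal RNA sensor, had 194, 141 and 187 CPM (122 ± 21.6 TPM), the highest of the receptors themselves. Unc93b1, which carries endosomal receptors to their compartment, had 492 ± 53.8 TPM. Tlr9, Tlr1 and Tlr12 had 41.2 ± 16.7, 40.0 ± 13.5 and 39.0 ± 17.6 TPM, with B lowest for each. Tlr4 had 5.49, 3.25 and 6.73 CPM, Tlr3, Tlr8 and Tlr13 stayed under 1 CPM, and Tlr5 and Tlr11 had 0 counts.

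**Figure D3:**
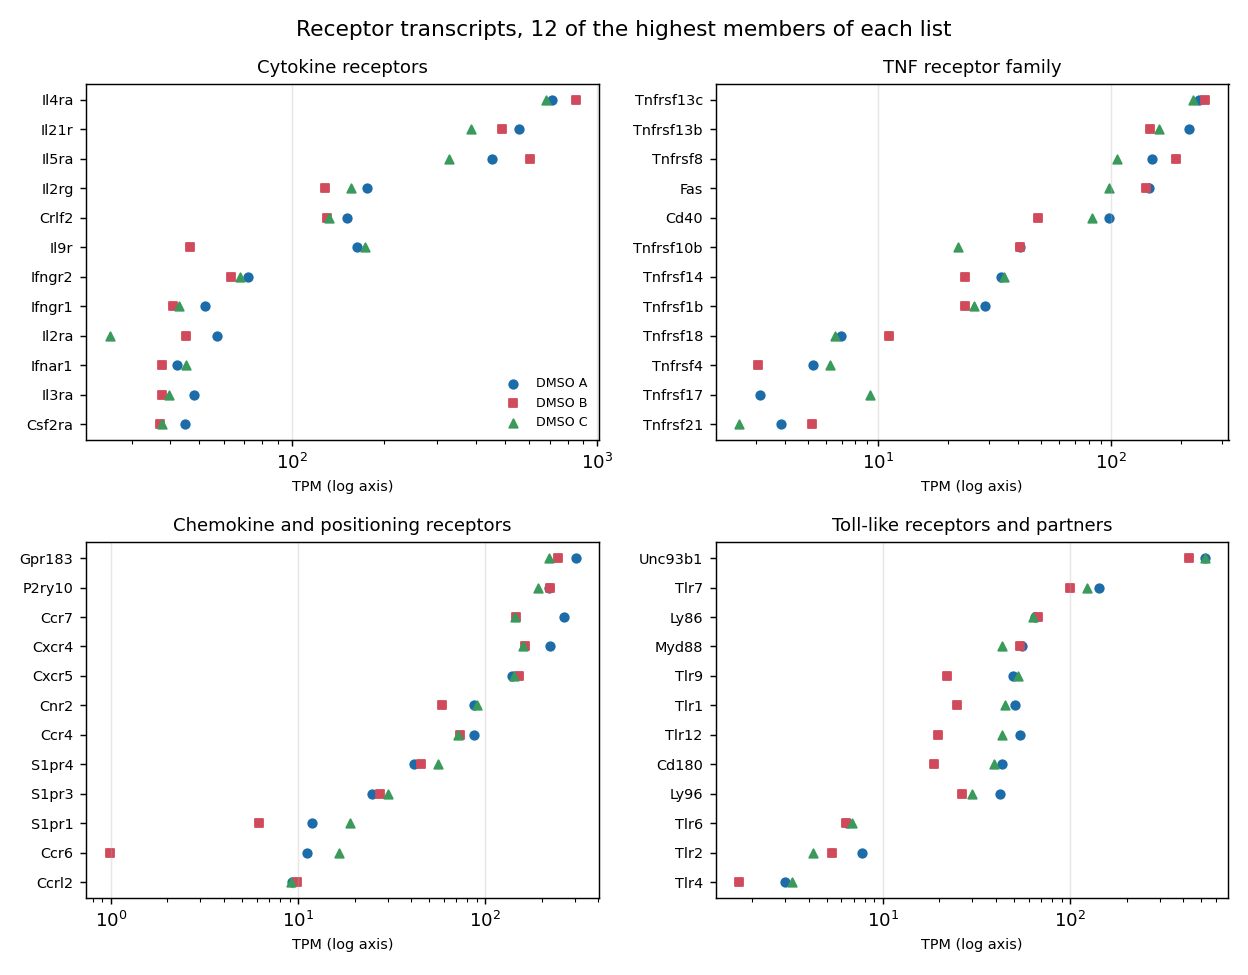
Level of 12 of the highest members of each of 4 receptor lists in TPM (log axis), one symbol per DMSO library, ordered by mean; Tnfrsf17 in library B is at 0 and not drawn. Il4ra leads the cytokine receptors (747 TPM on average), and the symbols of Ccr6 lie far apart, with library B lowest.

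Among Fc receptors, Fcer2a stood far above the rest at 1134 ± 262 TPM. Fcmr, the IgM Fc receptor, had 156 ± 22.1 TPM, and Fcgr2b, the inhibitory IgG receptor, 7.67 ± 2.16 TPM. The activating receptor genes Fcgr1, Fcgr3 and Fcgr4 stayed under 1 CPM, and Fcer1a, the high-affinity IgE receptor of mast cells, had 0 counts. Integrins were led by the LFA-1 chains Itgb2 (205 ± 8.82 TPM) and Itgal (137 ± 7.03 TPM), with Itgb1 at 102 ± 13.6 TPM and Itgb3 at 83.0 ± 21.2 TPM.

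All 27 genes of the CD40 and NF-kB pathway reached 1 CPM in every library, with a median of 76.2 TPM. Nfkbia, the inhibitor that NF-kB itself induces, had 268, 175 and 189 CPM (378 ± 108 TPM). The subunit genes Nfkb2 and Nfkb1 had 321 ± 103 and 253 ± 32.4 TPM, Rel 135 ± 23.8 TPM and Rela 106 ± 18.4 TPM. The apoptosis inhibitors Birc2 and Birc3 had 225 ± 74.7 and 194 ± 21.8 TPM, and Birc2 was highest in B (278, 491 and 306 CPM). Bcl2a1d, a prosurvival BCL2 relative in a family of near-identical copies that can share reads, had 336 ± 151 TPM. The adaptor Traf1, an NF-kB target, had 408, 248 and 304 CPM, and 16 of the 27 genes were lowest in B, beside 48.4% of all genes averaging at least 10 CPM.

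Surface molecules of activated B cells were present at very different levels. Cd83 had 753, 729 and 861 CPM (869 ± 42.5 TPM), Cd48 612 ± 78.1 TPM and the adhesion receptor Cd44 425 ± 92.6 TPM. Cd86 (51.8 ± 10.4 TPM) and Cd80 (41.3 ± 21.3 TPM), both ligands of CD28, overlapped, and Cd80 was lowest in C (60.4, 73.5 and 23.6 CPM). Icosl, the ICOS ligand, had 35.8, 4.23 and 50.4 CPM and was low in B. The early activation marker Cd69 had 216, 88.6 and 80.9 CPM and was high in A. The ligand genes Cd274 (PD-L1) and Pdcd1lg2 (PD-L2) had 55.9 ± 4.48 and 38.3 ± 3.57 TPM.

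Genes of B cell identity were expressed throughout: 24 of 24 antigen receptor and surface genes and 28 of 29 lineage transcription factors reached 1 CPM in all libraries. The receptor signalling chains Cd79b and Cd79a had 1846 ± 166 and 1463 ± 64.8 TPM. Ms4a1, which encodes CD20, had 575, 273 and 559 CPM and was lowest in B. Cr2, the complement receptor CD21 of resting B cells, was low in each library at 5.86, 7.05 and 9.76 CPM.

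Pou2af1, the coactivator OBF1, had 2043, 1686 and 2173 CPM, and its 2211 ± 264 TPM was the highest level among lineage transcription factors. Spib (388 ± 74.5 TPM) and Tcf3, which encodes E2A (306 ± 39.9 TPM), came next and overlapped. Ikzf1, Mef2c and Pax5, the guardian of B cell identity, had 205 ± 33.0, 193 ± 33.2 and 174 ± 27.6 TPM and did not separate beyond their spread. Foxo1, which encodes the factor that the inhibitor of the study acts on, had 143, 120 and 156 CPM (46.2 ± 5.15 TPM) in these solvent controls. Ikzf2 was the 1 member that stayed under 1 CPM in all 3 libraries.

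Among factors of activation and fate, Xbp1, a driver of the secretory program that IL4 also raises, had 1071, 1059 and 1531 CPM (1070 ± 174 TPM). Nfil3, an IL4-responsive repressor linked to IgE switching, had 461, 541 and 443 CPM (684 ± 92.6 TPM). Irf4 had 552, 488 and 620 CPM (323 ± 30.0 TPM) and Irf8 543, 426 and 515 CPM (201 ± 29.0 TPM), and in each library Irf4 was higher per length. Myc had 388, 175 and 251 CPM, and Batf, an AP-1 partner of IRF4 needed for switching, 119, 118 and 97.2 CPM. Bcl6, the germinal centre repressor, had 42.2, 60.0 and 36.4 CPM and Prdm1, the plasma cell repressor, 38.8, 29.9 and 74.8 CPM; B was highest for Bcl6 and lowest for Prdm1, and per length their ranges overlapped.

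Several factors of this group differed between libraries. Egr1 had 196, 173 and 41.7 CPM, with C low. Egr2 had 312, 149 and 141 CPM, Klf6 131, 58.7 and 67.4 CPM and Bhlhe40 159, 71.7 and 70.5 CPM, with A high for each. Aire, known from self-antigen expression in the thymus, had 50, 8.16 and 62.9 CPM. The median coefficient of variation (CV, the SD as a percentage of the mean) of the 28 expressed members was 38.1%, beside 14.7% for lineage factors and 11.6% for all genes averaging at least 10 CPM. Mycn and Tox stayed under 1 CPM. Factors of other lineages were mostly silent: 17 of 24 stayed under 1 CPM in all libraries, among them Gata3, Foxp3 and Cebpa, while Zbtb7b (61.1, 67.7 and 53.1 CPM) and Tcf7 (36.5, 22.1 and 24.5 CPM) were expressed.

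**Figure D4:**
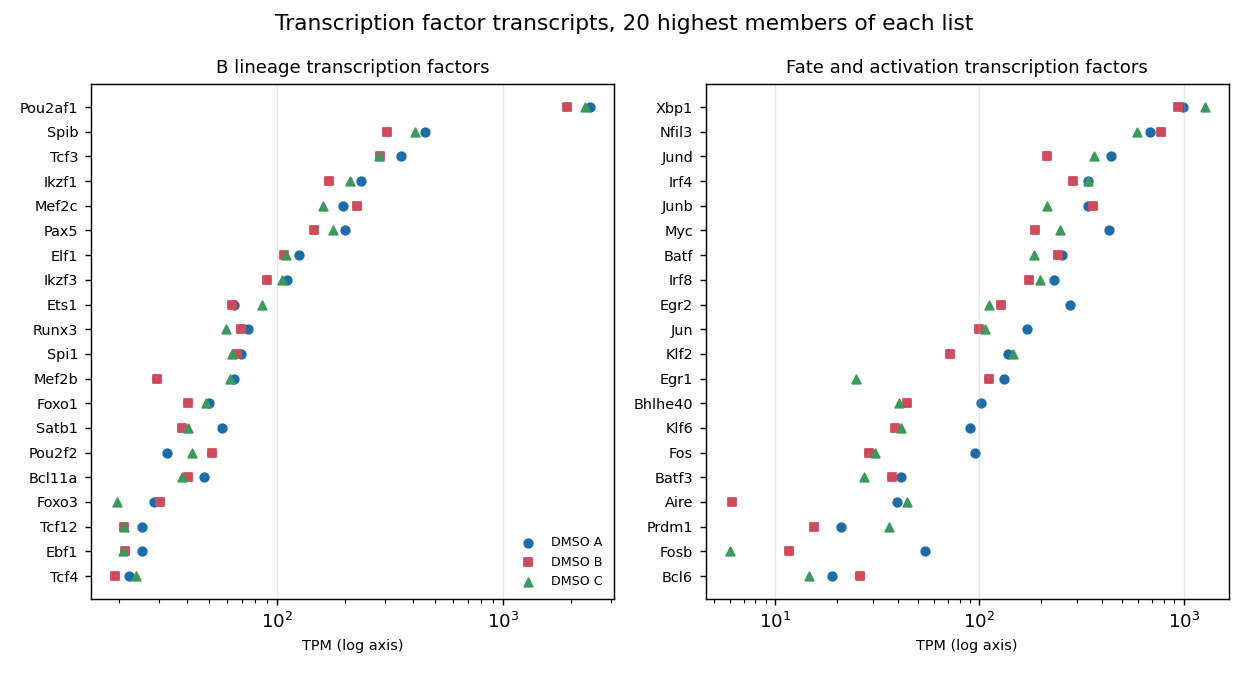
Level of the 20 highest members of the B lineage and of the fate and activation transcription factor lists in TPM (log axis), one symbol per DMSO library. Pou2af1 leads the lineage factors (2211 TPM on average); Egr1, Fosb and Aire show the libraries far apart.

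All 13 class II and all 15 class I antigen presentation genes listed reached 1 CPM in every library, with medians of 536 and 236 TPM. H2-Eb1, H2-Ab1 and H2-Aa, the peptide-binding class II chains, had 2743 ± 375, 2649 ± 508 and 1716 ± 257 TPM. Ciita, their transactivator, had 418, 261 and 453 CPM. Library B was lowest for 12 of the 13 class II genes, beside 48.4% of all genes averaging at least 10 CPM. Class I was steadier: H2-K1 had 1979, 2095 and 2227 CPM (2047 ± 16.3 TPM), H2-D1 1731 ± 44.8 TPM and the peptide transporter Tap1 359, 357 and 356 CPM. H2-Q6 and H2-Q7 are near-identical copies whose counts are uncertain.

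Of 54 cytokine and chemokine genes, 12 reached 1 CPM in all libraries and 35 stayed under it in all. Ccl22 was the most abundant at 1370 ± 544 TPM. Ltb, the lymphotoxin chain, had 240 ± 55.1 TPM, Ebi3, a subunit of IL27 and IL35, 210 ± 64.0 TPM, and Csf1, the macrophage growth factor, 268, 367 and 268 CPM (164 ± 33.6 TPM). Vegfa had 90.6, 183 and 126 CPM and Tgfb1 180, 137 and 167 CPM. Il6 was low at 2.99, 3.53 and 3.23 CPM, Il10 had 0.140, 0.597 and 0.587 CPM and Il4 itself 0.187, 0.325 and 0.147 CPM. Il12b, Il13, Il17a, Il22, Il7, Csf2, Ifnb1, Ccl19, Cxcl12, Cxcl13 and 8 further members had 0 counts in all 3 libraries.

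Transcripts of the secretory fate were present beside those of B cell identity. Mzb1, an ER chaperone partner of immunoglobulin, had 856, 1416 and 1006 CPM (57.2% of its exon length lies under another gene of the same strand), the ER chaperone Hsp90b1 1926, 1665 and 2634 CPM and Pdia4 828, 797 and 1187 CPM. Sdc1, the plasma cell marker CD138, had 40.9, 10.5 and 88.1 CPM, with C high and B low. Of 17 plasma cell genes at 1 CPM in all libraries, 15 were highest in C and 15 lowest in B, where 28.8% and 48.4% of all genes averaging at least 10 CPM were. The count lowest in B was 11 with TMM and 12 with DESeq2 scaling.

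Several germinal centre genes were at moderate levels. Lmo2 had 112 ± 32.9 TPM, Basp1 94.8 ± 65.3 TPM (50.9, 116 and 30.2 CPM) and the germinal centre adaptor gene Klhl6 81.1 ± 18.8 TPM. S1pr2, which confines cells to germinal centres, had 9.44, 9.11 and 8.51 CPM, and Rgs13 was at 0 in A and C and at 0.163 CPM in B. Of 11 genes listed for marginal zone and B1 cells, 10 reached 1 CPM in all libraries. Mzb1, also a plasma cell gene, was the highest of them, S1pr3 had 27.4 ± 2.54 TPM, Cd1d1 had 9.86, 5.59 and 11.0 CPM, and Cd5 0.794, 0.732 and 1.66 CPM.

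Cell division genes were expressed throughout, 26 of 26 for S phase and 25 of 25 for G2 and M. The replication clamp Pcna had 287, 224 and 244 CPM (302 ± 51.6 TPM), Rrm2 272 ± 52.4 TPM and the helicase subunits Mcm3 and Mcm6 262 ± 59.1 and 254 ± 59.0 TPM. Top2a had 831, 537 and 789 CPM and Mki67 778, 515 and 865 CPM. Library B was lowest for 23 of 26 S phase and 24 of 25 G2 and M genes, beside 48.4% of all genes. Ccnd2 was the most abundant D-type cyclin at 167 ± 21.8 TPM, with Ccnd3 at 29.4 ± 8.67 TPM and Ccnd1 under 1 CPM. Cdkn1a, the cell cycle inhibitor p21, had 166, 376 and 79.7 CPM, highest in B.

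Glycolysis genes had the opposite order. All 18 were highest in B, where 29.4% of all genes averaging at least 10 CPM were highest. Gapdh had 1787, 2421 and 1757 CPM, Pgk1 337, 833 and 417 CPM, Ldha 388, 793 and 481 CPM, and the lactate exporter Slc16a3 9.16, 112 and 31.1 CPM. Of 77 ribosomal protein genes, 75 were highest in B.

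**Figure D5:**
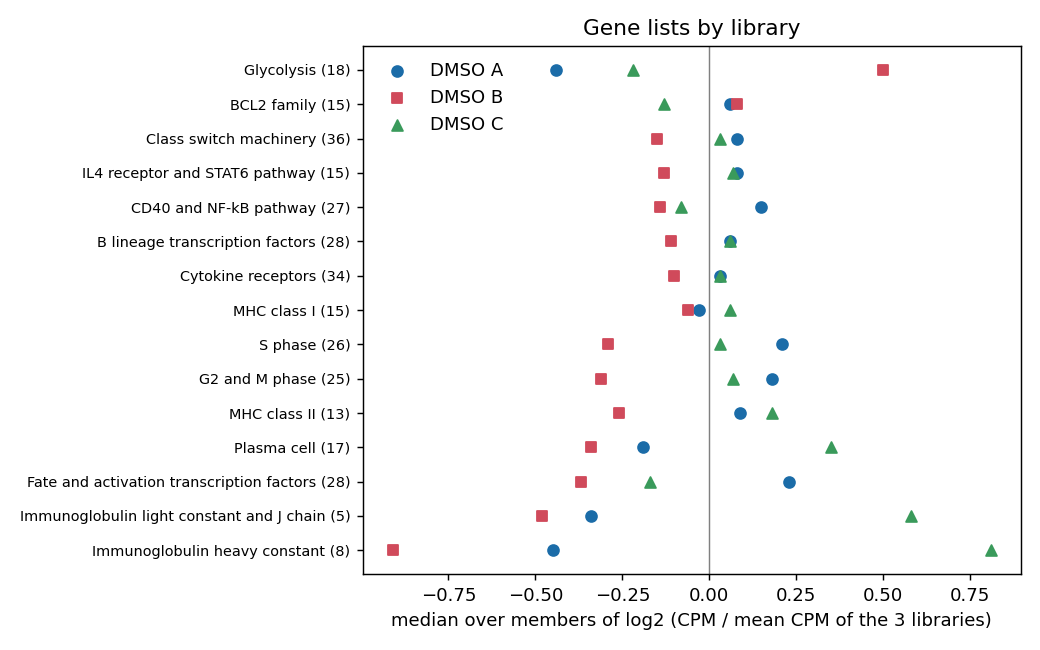
Median over the members of a gene list of log2 (CPM / mean CPM of the 3 libraries), by DMSO library; the number of members at 1 CPM or more is in parentheses. Glycolysis lies to the right for library B, and the S phase, G2 and M, MHC class II and immunoglobulin lists lie to the left for B.

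Prosurvival and proapoptotic genes of the BCL2 family were both expressed, 15 of 18 in all libraries. Mcl1 had 558, 555 and 572 CPM (471 ± 21.3 TPM), the steadiest of the prosurvival genes named here. Bcl2l1, which encodes BCL-xL, had 166, 118 and 79.6 CPM (76.8 ± 31.4 TPM) and Bcl2 94.0, 46.1 and 61.3 CPM (21.2 ± 8.67 TPM). The effectors Bax and Bak1 had 178 ± 42.0 and 97.6 ± 7.47 TPM, and the BH3-only gene Bcl2l11 56.5 ± 4.79 TPM. Hrk had 0 counts.

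Most markers of other cell types stayed under 1 CPM in at least 1 library, with some exceptions. Of 15 T cell markers, Cd28 alone reached 1 CPM in all libraries (12.2, 6.67 and 23.9 CPM), Trac had 1.00, 1.27 and 0.587 CPM, and Cd3g and Themis had 0 counts; the summed level of the list was 16.3, 12.4 and 29.8 CPM. Of 9 NK markers, Prf1 and Eomes passed, the sum was 13.7, 5.75 and 22.8 CPM, and Ncr1 and Klre1 had 0 counts. Gzmb, a cytotoxic granule protease, had 2.73, 0 and 7.24 CPM. Of 14 macrophage and monocyte markers, Cd68 (15.6, 21.2 and 16.8 CPM) and Adgre1 (14.5, 20.8 and 20.6 CPM) passed, while Cd14, C1qa, C1qb, Mertk and Vcam1 had 0 counts and Csf1r had 0.0542 CPM in B alone; the list summed to 31.7, 43.6 and 39.8 CPM. The 8 dendritic cell markers, of which Bst2 (22.2, 33.7 and 27.6 CPM), Zbtb46, Flt3 and Itgax passed, summed to 91.8, 115 and 82.5 CPM, and Clec9a had 0 counts.

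Of 8 neutrophil markers, S100a8, S100a9, Elane and Camp had 0 counts, Csf3r passed (1.24, 4.64 and 3.06 CPM), and the list summed to at most 4.66 CPM. Of 10 erythroid and platelet markers, 7 had 0 counts, among them Hba-a1, Hba-a2, Hbb-bs, Alas2 and Pf4, and Itga2b alone passed (1.87, 4.10 and 2.69 CPM); the list summed to at most 4.64 CPM. The mast cell and basophil list summed to at most 0.391 CPM, with Mcpt8, Prss34 and Tpsb2 at 0. The stromal genes Col1a2, Col3a1, Dcn, Pdgfra and Kdr had 0 counts, and that list summed to 13.1, 15.7 and 20.9 CPM, mainly from Pecam1 (10.7, 10.4 and 19.6 CPM). The part of these cells in any result was not tested. A count of 0 in a single library allows up to 0.0701, 0.0814 and 0.0734 CPM. In these cells, kept in stem cell medium, 3 of 12 listed pluripotency genes reached 1 CPM in all libraries and 9 stayed under it. That list summed to 409, 194 and 263 CPM, mostly from Myc (388, 175 and 251 CPM), given above among factors of activation and fate. Nanog, Sox2, Esrrb, Tbx3, Dppa3 and Tdgf1 had 0 counts, and Pou5f1 had 0.0234 CPM in A alone. The Y-linked genes Eif2s3y, Ddx3y, Kdm5d and Uty were present in each library and Xist had at most 0.440 CPM, as the label of male mice has it.

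Most genes averaging at least 10 CPM were steady over the 3 libraries. Among these 8904 genes, the median CV was 11.6% and the 90th percentile 28.5%. The median was 11.1% without library A, 7.56% without B and 10.4% without C. With no minimum beyond 1 count in each library, the median CV was 19.1%. Of the 8904 genes, the highest library exceeded the lowest by over 2 times for 529 (5.94%). Among these, B was the highest or lowest library for 481, being highest for 174 and lowest for 307. Library C was highest for 248 and lowest for 137, and A for 107 and 85. Over all 8904 genes, B was highest for 29.4% and lowest for 48.4%. The number over 2-fold apart was 150 without library B, 435 without A and 280 without C. A ratio over 2 libraries cannot exceed that over 3, so part of each drop is built in. The 10 genes with the smallest CV at a mean of 100 CPM or more included Foxk2, Sec13, Tap1, Msl1, Capn1, Wapl, Gusb, Arf3 and Luc7l2. Foxk2, a forkhead factor, had 122, 121 and 121 CPM, and Gusb, a lysosomal enzyme often used as a reference gene, 109, 108 and 108 CPM.

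Named protein-coding genes averaging at least 10 CPM, with a count in every library, were ranked by the ratio of highest to lowest library. The 10 with the largest ratio all had library B at an extreme. Over all genes averaging at least 10 CPM, B was highest for 29.4% and lowest for 48.4%. Ak4, a mitochondrial adenylate kinase, had 0.701, 30.2 and 3.82 CPM. Egln3, an oxygen-sensing prolyl hydroxylase, had 1.59, 35.1 and 2.64 CPM, and Tsku 2.48, 35.7 and 2.15 CPM, so with Slc16a3 a total of 4 were high in B. The other 6, among them Ffar2, Icosl, Cnbd2, Zfp541 and Fcrls, were low in B; the fatty acid receptor gene Ffar2 had 12.1, 1.19 and 23.7 CPM. Genes near absent in a single library also fell mainly in B. In all, 10 genes had 3 counts or fewer in B and 50 or more in both others, among them Gzmb, Kit, Cd244a, Pirb and Nuggc. The reverse was seen for 10, of which 4 were heavy V genes (Ighv7-2 and Ighv6-7) or heavy V pseudogenes (Ighv12-2 and Ighv1-33). In library C there were 0 and 1 such genes, and in A 0 and 0. Genes of these counts were picked after their values were seen.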

How the data were processed

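Poly(A) RNA was sequenced with a directional library kit, per the labels' protocols. Raw counts of reads over 54838 gene identifiers were deposited by the authors as 1 table, with no scaling. STAR 2.7.10a, featureCounts 2.0.6, DESeq2 and build GRCm38 (mm10) are named in the submitters' processing notes. No source used here gives the strand setting of the counting, which leaves genes that overlap and near-identical copies uncertain. Symbols, coordinates and exon lengths came from GENCODE M21 (54809 identifiers matched). All 37 genes of the mitochondrial chromosome stand at 0 in the table and were left out of the descriptions.

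From the 3 DMSO columns, CPM was computed with total gene counts as library size, and TPM from counts per kilobase of merged exons, with pandas 2.3.3 in Python 3.11.15. A gene counted as expressed at 1 CPM or more in all 3 libraries. Spread was described for genes averaging at least 10 CPM. Counts between replicate libraries differed well beyond sampling noise (chi-square per degree of freedom 61.0 to 157), so none was treated as a duplicate. Totals of 36873204 to 42798114 leave little counting error at 10 CPM. The computations were tested on simulated counts whose variation between libraries was set lower than in these data. That checks the code and not the results. Alternatives used TMM (edgeR 4.0.16), DESeq2 1.42.0 size factors, totals without immunoglobulin genes, other minimums and each library left out.

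The 42 gene lists (696 of 698 symbols matched; Ighg2a and Shld3 did not) and the named members were chosen with earlier results of these data known. Named genes are the 25 highest by TPM, the 10 highest by CPM, up to 10 highest members of each list and its absent members, the culture markers, and the 10 most and 10 least variable genes. Genes outside these sets are given as range or contrast and were chosen after their values were seen. Some members of these sets are not reported here.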

Additional observations from a re-analysis of the deposited data

How the results depend on the processing

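No paired analysis was possible because the DMSO libraries are 1 group and no test was run. The number of expressed genes was 11515 and stayed between 11493 and 11792 under TMM, DESeq2 and immunoglobulin-free scaling and with each library left out; it was 12452 at 0.5 CPM and 9571 at 5 CPM. The number of genes over 2-fold apart (529) was 435 without A, 150 without B and 280 without C. Part of each drop is built in, since 1 library fewer cannot raise the ratio of highest to lowest. Why the drop was largest without B was not tested. With no minimum beyond 1 count in each library the number was 4914, and at a mean of 50 CPM or more it was 198. By CPM in place of TPM, 12 of the 25 most abundant genes were shared, since CPM grows with transcript length. Per kilobase of exon, Ighg1 held 22.9% and Ighe 32.4% of the heavy chain constant signal. Of 469 list members, the mean CPM moved by less than 1 SD for all 469 under TMM and DESeq2 scaling, and 20 moved by more with immunoglobulin genes taken out of the totals, by at most 1.06 times; leaving out 1 library moved single list members by up to 2.58 (without A), 2.51 (without B) and 2.12 times (without C). Library B was highest for 18 of 18 glycolysis genes and 75 to 76 of 77 ribosomal protein genes under the 4 scalings. With total counts as library size, 29.4% of all genes averaging at least 10 CPM were highest in B. That share was not computed under the other scalings. With 3 libraries, the SD of any gene is itself imprecise.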
